A study of Mus musculus with 12 samples.

Results

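The genes described here are the matrix metalloproteinases (Mmp genes), the ADAMTS proteases with the related ADAMTS-like genes (Adamtsl), and the tissue inhibitors of metalloproteinases (Timp), measured in mouse myocardium, the muscle of the heart. They were chosen by symbol, as every gene whose name begins with Adamts, or with Mmp or Timp followed by a digit. That rule gave 51 of the 33641 gene symbols in the table, with 187 of its 105129 transcripts: 23 Mmp genes, 19 Adamts, 5 Adamtsl and 4 Timp.

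The 12 hearts came from C57BL/6 wild-type males, 3 per group, and the 4 groups were sham vehicle, sham prednisone, MI vehicle and MI prednisone, where MI is myocardial infarction and prednisone a synthetic glucocorticoid. Treated mice received 1 mg/kg of prednisone intraperitoneally once a week at lights-on (ZT0) for 6 weeks, beginning 2 weeks after the operation. The labels put the mice at about 10 weeks of age when injected and at about 16 weeks when tissue was taken, 24 hours after the final dose. They give neither the method of infarction nor whether the sampled myocardium was scar, border or remote wall, and each library is a separate mouse.

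Matrix metalloproteinases are zinc enzymes, made as inactive precursors, that cut collagens, gelatins and other matrix proteins, and TIMPs bind their active site and block it. ADAMTS proteases carry thrombospondin repeats. One branch trims the amino-terminal propeptide off fibrillar procollagens and another cuts versican and aggrecan, whereas the ADAMTS-like proteins lack the protease domain and associate with fibrillin microfibrils. In the infarcted heart these families are known for degrading and rebuilding the collagen scar. The values below are RNA levels in TPM (transcripts scaled to a fixed total, so that each value is a share of a library). Protease activity, which depends on activation and on bound inhibitor, was not measured.

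The promoters of the 4 inhibitors are shown because Timp1, Timp2 and Timp3 rose after infarction under vehicle and the change of Timp4 did not pass the test, and that of Mmp3 because it carries an AP-1 motif. Each line is the stretch of 100 bases just before the RefSeq start site (GRCm38.p6), in the direction of transcription, with motif matches in capitals.
Timp1, chrX:20870066-20870165, plus strand: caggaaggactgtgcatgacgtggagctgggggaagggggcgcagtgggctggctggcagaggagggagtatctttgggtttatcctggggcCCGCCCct
Timp2, chr11:118355412-118355511, minus strand: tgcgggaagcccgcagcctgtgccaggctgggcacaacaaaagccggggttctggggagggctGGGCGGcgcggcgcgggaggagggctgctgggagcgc
Timp3, chr10:86300312-86300411, plus strand: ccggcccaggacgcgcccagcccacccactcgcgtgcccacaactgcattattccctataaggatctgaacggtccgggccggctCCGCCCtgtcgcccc
Timp4, chr6:115252206-115252305, minus strand: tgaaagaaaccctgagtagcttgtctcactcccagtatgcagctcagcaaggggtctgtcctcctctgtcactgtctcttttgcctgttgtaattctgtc
Mmp3, chr9:7445722-7445821, plus strand: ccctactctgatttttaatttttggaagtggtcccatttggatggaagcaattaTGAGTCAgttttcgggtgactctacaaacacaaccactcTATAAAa
Capitals mark the GC box GGGCGG, which appears as CCGCCC when it lies on the other strand, the AP-1 motif TGANTCA and the TATA motif TATAAA. No such match fell in the Timp4 stretch, of which 49.0% is G or C, against 65.0% for Timp1, 75.0% for Timp2 and 69.0% for Timp3. Motifs were searched on both strands of RefSeq's windows of 300 bases (250 before and 50 after each start). A window was found for 36 of the 51 genes, 19 of them among those tested. GGGCGG occurred for 16 of those 19 genes and in 35.7% of all 32851 windows, TATAAA for 4 (Adamts1, Adamtsl2, Mmp3, Mmp12) against 13.6%, and TGANTCA for 2 (Mmp3, Mmp12) against 7.81%. AGAACA, the 6 letters that form each side of the glucocorticoid receptor element, occurred for 3 (Mmp11, Mmp12, Mmp23) against 19.0%. A match describes these letters only.

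Of the 51 genes, 28 reached 1 TPM in at least 3 of the 12 libraries and were tested: 10 of 23 Mmp, 9 of 19 Adamts, and the 5 Adamtsl and 4 Timp genes. Adamts8 passed that filter only through libraries of infarcted hearts. Mmp1a and Mmp1b, the mouse genes named after human collagenase MMP1, were listed at 0 in all 12 libraries. The other 21 untested genes were Adamts4, Adamts6, Adamts12, Adamts13, Adamts14, Adamts16, Adamts17, Adamts18, Adamts19, Adamts20, Mmp7, Mmp8, Mmp10, Mmp13, Mmp16, Mmp17, Mmp20, Mmp21, Mmp24, Mmp25 and Mmp27. Their highest values in any library ran from 0.017 TPM for Mmp20 to 1.24 TPM for Adamts6. The secreted collagenases were low: Mmp13 stood between 0.16 and 0.49 TPM and Mmp8, the neutrophil collagenase, between 0 and 0.38 TPM.

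Between 11690 and 14307 genes reached 1 TPM per library, and mitochondrial transcripts took 21.6% to 42.0% of TPM. That share was 23.1% in MI vehicle replicate 3 and 24.6% and 21.6% in MI prednisone replicates 1 and 2. Every other library had at least 32.4%. Summed markers of cardiomyocytes were 31850 to 33637 TPM in sham vehicle and 32787 to 37823 in sham prednisone. In MI vehicle they were 22568 to 28246 TPM, below every other library, and in MI prednisone 32653 to 35352. MI vehicle replicate 3 stood apart: its median gene was 0.74 above the sham vehicle mean on the log2 scale, against -0.07 to 0.25 in the other libraries. It also held 380 TPM of summed T cell markers against 1.77 to 17.5 elsewhere, and 138 TPM of B cell markers against 2.40 to 18.1. Its adipocyte markers summed to 1501 TPM, against 16.4 to 826 elsewhere. Summed fibroblast markers were 877 to 1118 TPM in sham vehicle, 1541 to 1741 in MI vehicle and 726 to 1191 in MI prednisone, and macrophage markers 277 to 394, 614 to 1341 and 307 to 558. Atrial markers were highest in MI prednisone (4387 to 6224 TPM), against 865 to 2534 in sham vehicle and 2836 to 4161 in MI vehicle. Of that sum Nppa averaged 904 TPM in sham vehicle, 2706 in MI vehicle and 3319 in MI prednisone. Myl7, Sln and Myl4 averaged 445, 48.0 and 341 TPM in sham vehicle but 308, 31.9 and 244 in MI vehicle. In MI prednisone they averaged 948, 104 and 716 TPM. Dkk3 averaged higher in MI vehicle than in sham vehicle (27.3 against 16.8 TPM), and Bmp10 stood at 11.2 against 12.7. These marker sums moved with the groups compared below, and their part in the results was not tested. In bulk tissue, fewer cells of a type and less RNA per cell cannot be told apart.

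After infarction under vehicle, 3 of the 4 inhibitors rose, with 4 of 7 tested secreted MMPs and 2 of 3 tested membrane-type and transmembrane MMPs. Under limma with Benjamini-Hochberg adjustment over 13158 genes, 14 of the 28 tested genes were higher in MI vehicle than in sham vehicle, where 15.1% of all genes were. A gene that passes the filter only where it is high, as Adamts8 did, adds to such a count. Timp1, Timp2, Timp3, Mmp2, Mmp3, Mmp14, Mmp19, Mmp23, Mmp28, Adamts1, Adamts2, Adamts8, Adamts10 and Adamtsl2 rose, and Adamts7 fell, where 0.904% of all genes fell. The median log2 difference was 0.70 over the 28 genes and 0.39 over all genes. The 3 MI vehicle mice lay entirely above the 3 sham vehicle mice for 17 tested genes and below for 2, where 40.8% and 4.17% of all genes did so. Since the median gene itself moved, part of each rise is shared with the library as a whole: with libraries rescaled so that the median gene ratio was equal (median-ratio rescaling), 6 of the 28 genes rose and 3 fell. Over all 13158 genes 490 then rose and 489 fell. The number of members called also rested on single mice, being 5 without sham vehicle replicate 3, 8 without sham vehicle replicate 1 and 9 without MI vehicle replicate 3. It was 0 when only these 2 groups were fitted, without the spread of the other groups. Calls over all 13158 genes dropped as well, from 2100 to 120, 168, 966 and 2 in these fits, in the same order. Below, a number in parentheses after a left-out mouse is limma's adjusted p without that mouse.

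Among infarcted hearts, nearly every inhibitor or protease that changed was lower with prednisone. Of the 28 genes, 12 were called lower in MI prednisone than in MI vehicle, 42.9% where 34.9% of all genes were, so the share differed little from the background. Adamts1, Adamts2, Adamts5, Adamts9, Adamtsl1, Adamtsl3, Mmp2, Mmp14, Mmp23, Mmp28, Timp2 and Timp3 fell, and Adamts10 rose, where 2.5% of all genes rose. The median was -0.58 over these genes and -0.41 over all genes. The groups did not overlap for 15 tested genes, each lower with prednisone, where 42.6% of all genes were lower and 3.59% higher without overlap. After each library's trend with transcript length was subtracted (the length correction, added after seeing the data), the calls were 4 higher and 4 lower of 27 members with a length. Over all 11894 genes with a length, 1068 were then higher and 915 lower.

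Under prednisone, infarction was accompanied by few called differences: Adamts10, Adamtsl2 and Mmp12 rose and Adamtsl3 fell, so that 3 of 28 rose where 2.73% of all genes did and 1 fell where 14.1% did. That count was 2 without sham prednisone replicate 1, sham prednisone replicate 3 or MI prednisone replicate 2, and 7 without MI prednisone replicate 3. Calls over all genes, 2213 in the main fit, were 1219, 1167, 1041 and 2630 in these fits, in the same order. With median-ratio rescaling 7 members rose and 1 fell, where 1536 and 1881 of all 13158 genes did. In sham hearts no member was called between prednisone and vehicle by limma, where 0.114% of all genes were, and 2 of the 28 had an unadjusted p under 0.05. The interaction, the infarction difference under prednisone minus that under vehicle, was called for 7 genes: Timp2, Timp3, Mmp14, Adamts2, Adamts5, Adamts9 and Adamtsl3. All 7 were lower, 25.0% of the tested genes, where 20.7% of all genes were lower and 0.540% higher. The MI vehicle mice enter the vehicle comparison, the comparison among infarcted hearts and the interaction, so these 3 results are not independent of each other.

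**Figure D1:**
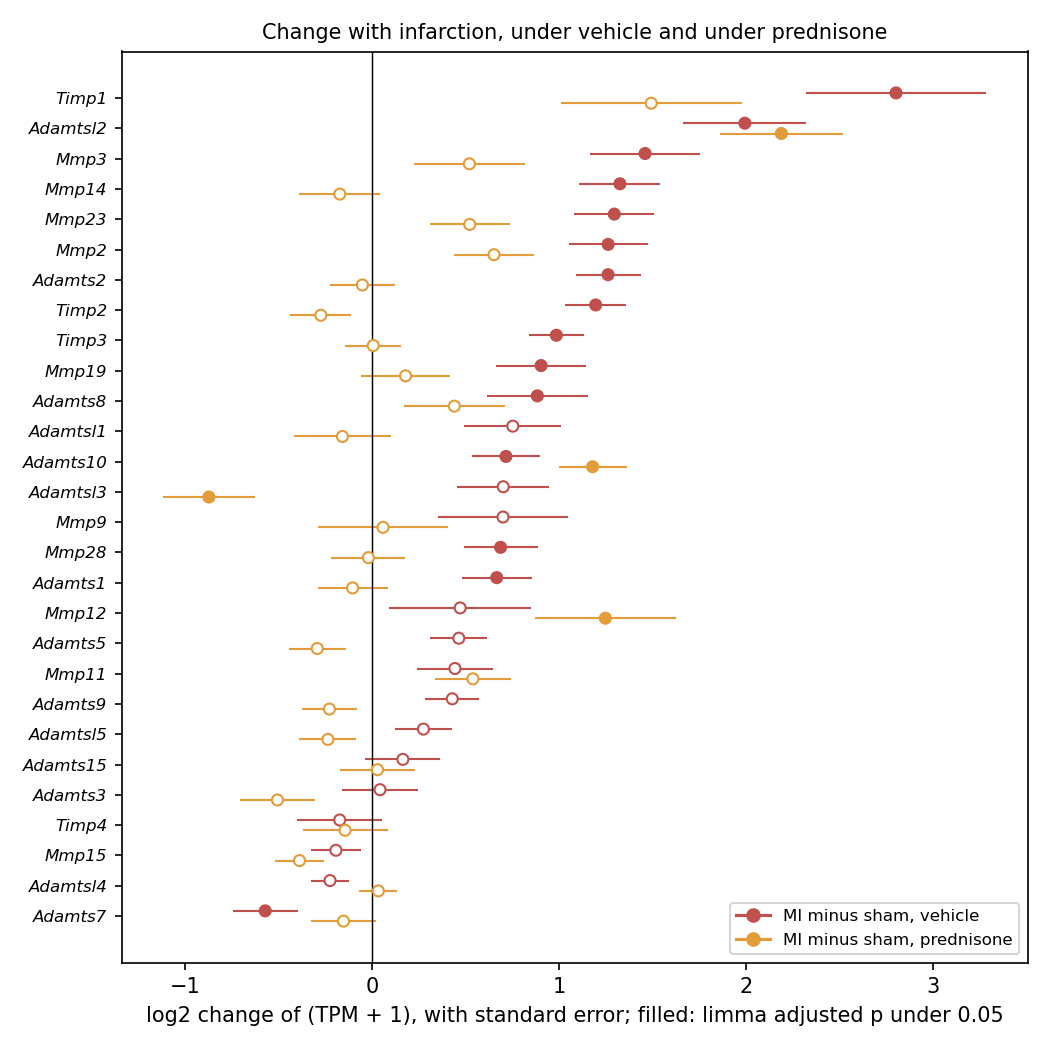
Difference between MI and sham for each of the 28 tested genes, in log2(TPM + 1) units with standard errors, under vehicle (red) and prednisone (orange), with filled points where limma's adjusted p was under 0.05. Filled red points number 15 and filled orange points 4, and Timp1 has the largest difference under vehicle, 2.80.

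Timp2 had the highest mean TPM of the 4 inhibitors in every group, its range overlapping that of Timp3 in all groups but sham prednisone. It encodes the inhibitor that also assists activation of pro-MMP2 by MMP14 (chr11:118301069-118355740). Its level was 51.4, 65.1 and 46.4 TPM in the sham vehicle mice, 59.0, 52.2 and 59.9 in sham prednisone, 108, 118 and 151 in MI vehicle, and 53.3, 48.5 and 39.8 in MI prednisone. Every MI vehicle mouse stood above every other mouse, while the MI prednisone mice fell within or below the sham range. The rise under vehicle was 1.19 ± 0.16 (SE) on the log2(TPM + 1) scale (limma adjusted p = 0.0051), the difference under prednisone -0.28 ± 0.16 (adjusted p = 0.28), and the interaction -1.47 ± 0.23 (adjusted p = 0.0060). Among infarcted hearts the difference was -1.39 ± 0.16 (adjusted p = 0.00059), or -0.93 after median-ratio rescaling (adjusted p = 0.00099). Both annotated coding transcripts took part: the one of 3709 bases stood at 98.3 ± 19.5 TPM (SD, n = 3) in MI vehicle and 37.7 ± 6.58 in MI prednisone, and the one of 718 bases at 27.3 ± 6.40 and 9.56 ± 1.25.

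Timp3, whose product binds to the extracellular matrix and also inhibits ADAM17 and several ADAMTS enzymes, was also highest in MI vehicle (chr10:86300372-86349506, inside the synapsin gene Syn3 on the other strand, with which it shares 1733 annotated exon bases and which was at most 0.48 TPM). Its level was 45.1, 49.1 and 47.0 TPM in sham vehicle mice, 42.4, 40.3 and 39.9 in sham prednisone, 73.1, 113 and 101 in MI vehicle, and 44.5, 43.4 and 35.6 in MI prednisone. No MI vehicle mouse overlapped another group, and all 3 sham prednisone mice were below all 3 sham vehicle mice, a difference of -0.20 ± 0.15 that did not pass the test (adjusted p = 1.0). The vehicle rise was 0.98 ± 0.15 (limma adjusted p = 0.0065) and lost its call after median-ratio rescaling (0.55, adjusted p = 0.055) and after the length correction (0.58, adjusted p = 0.053). The difference of -1.18 ± 0.15 among infarcted hearts (adjusted p = 0.00078) stayed called under both, at -0.73 and -0.55. The interaction of -0.98 ± 0.21 (adjusted p = 0.013) lost its call under both, at -0.44 and -0.24.

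Timp1, the inducible, soluble inhibitor (chrX:20870166-20874735, inside Syn1 on the other strand with no shared exon bases), had the largest rise of the 28 genes after infarction under vehicle. The sham vehicle mice had 2.44, 3.29 and 2.11 TPM, the sham prednisone mice 3.79, 2.24 and 2.60, the MI vehicle mice 14.2, 62.3 and 15.2, and the MI prednisone mice 15.9, 9.25 and 6.19. All 6 infarcted hearts were above all 6 sham hearts, and MI vehicle and MI prednisone overlapped, MI vehicle replicate 2 standing far above its group mates. The rise under vehicle was 2.80 ± 0.48 (limma adjusted p = 0.0095) and lost its call without sham vehicle replicate 3 (adjusted p = 0.054). Under prednisone the difference of 1.49 ± 0.48 did not pass (adjusted p = 0.057), nor did the difference of -1.21 ± 0.48 among infarcted hearts (adjusted p = 0.067), which was -0.54 without MI vehicle replicate 2. The interaction was -1.31 ± 0.68 (adjusted p = 0.18). Its coding transcripts of 883 and 833 bases both took part, at 16.5 ± 15.0 and 14.0 ± 12.7 TPM (SD, n = 3) in MI vehicle against 0.82 ± 0.41 and 1.79 ± 0.63 in sham vehicle.

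Timp4, the inhibitor known for its expression in heart, did not share these changes (chr6:115241892-115252205, inside Syn2 on the other strand). It shares 90 annotated exon bases with Syn2, which was at 0.76 to 1.85 TPM. Its level was 7.25, 9.37 and 13.1 TPM in sham vehicle mice, 5.10, 8.52 and 6.23 in sham prednisone, 7.79, 7.39 and 10.3 in MI vehicle, and 5.05, 5.40 and 7.01 in MI prednisone. The MI prednisone mice lay just below the MI vehicle mice, a difference of -0.48 ± 0.23 that did not pass the test (limma adjusted p = 0.12), and the infarction difference under vehicle was -0.17 ± 0.23 (adjusted p = 0.54). Its shorter coding transcript of 945 bases was called lower in MI prednisone (-0.79 ± 0.25, adjusted p = 0.032 over all transcripts), at 2.64 ± 0.86 TPM against 5.26 ± 1.27 (SD, n = 3), whereas the one of 5496 bases stood at 3.18 ± 0.36 and 3.25 ± 0.45.

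**Figure D2:**
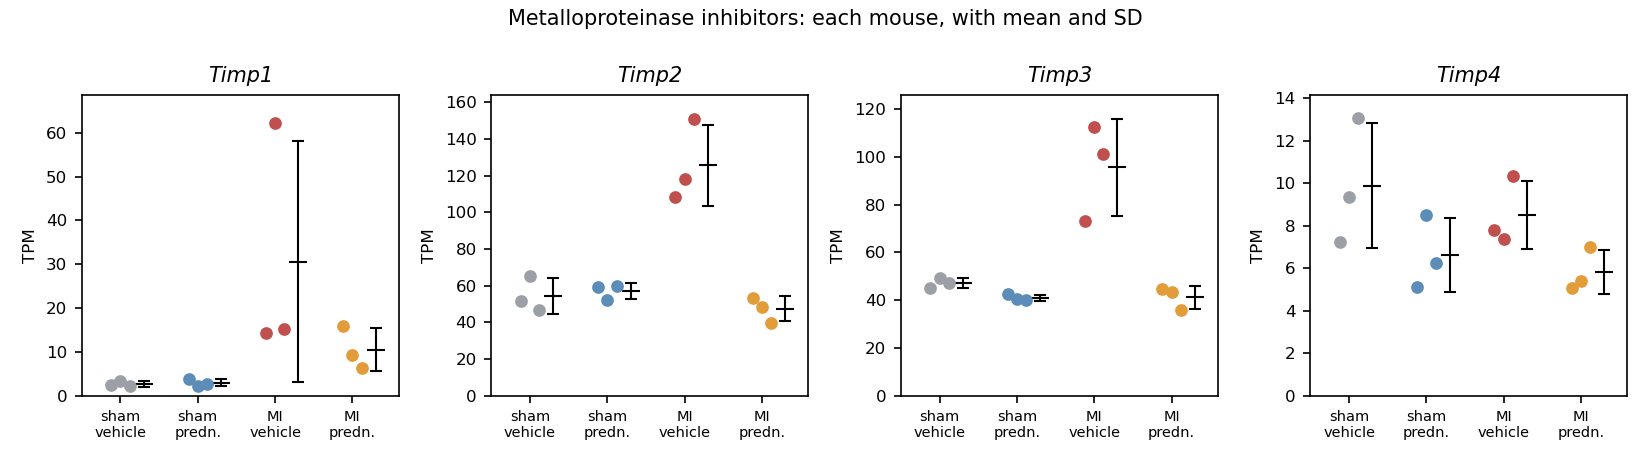
TPM of the 4 inhibitor genes in each mouse (points, 3 per group), with the group mean and SD beside them. For Timp2 and Timp3 the 3 MI vehicle mice stand above all others, for Timp1 the 6 infarcted hearts stand above the sham hearts with 1 MI vehicle mouse at 62.3 TPM, and for Timp4 the groups lie between 5.05 and 13.1 TPM.

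Mmp2, the gelatinase made mainly by fibroblasts, was the most abundant Mmp RNA in infarcted hearts (chr8:92827291-92853420). The sham vehicle mice had 19.2, 20.5 and 18.9 TPM, the sham prednisone mice 19.5, 16.3 and 22.1, the MI vehicle mice 37.4, 63.4 and 47.1, and the MI prednisone mice 39.5, 31.2 and 23.3. All infarcted hearts exceeded all sham hearts, and MI prednisone replicate 1 exceeded MI vehicle replicate 1. The vehicle rise was 1.26 ± 0.21 (limma adjusted p = 0.0088), lost without sham vehicle replicate 3 (adjusted p = 0.052) and after median-ratio rescaling (0.83, adjusted p = 0.050), and the difference under prednisone was 0.65 ± 0.21 (adjusted p = 0.057). Among infarcted hearts the difference of -0.64 ± 0.21 (adjusted p = 0.036) rested on single mice and on the scaling. It lost its call without MI vehicle replicate 2 (adjusted p = 0.11), MI vehicle replicate 3 (0.062), MI prednisone replicate 2 (0.072) or MI prednisone replicate 3 (0.13), and was -0.19 after median-ratio rescaling (adjusted p = 0.56).

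The gene total of Mmp2 hid a difference between its transcripts. The full-length coding transcript, Mmp2-201 (3078 bases), was 17.5, 19.5 and 17.9 TPM in sham vehicle, 35.6, 57.6 and 42.7 in MI vehicle, and 21.2, 15.4 and 17.2 in MI prednisone. In the transcript-level fit it rose with infarction under vehicle (1.24 ± 0.18, limma adjusted p = 0.011), differed by -0.08 ± 0.18 under prednisone (adjusted p = 0.80), and was lower in MI prednisone than in MI vehicle by a log2 difference of -1.27 ± 0.18 (adjusted p = 0.00073). The non-coding Mmp2-202 (935 bases) was listed at 0 in all 6 sham hearts and in 2 of 3 MI vehicle hearts, with 1.54 TPM in replicate 2, and stood at 8.23, 7.56 and 3.92 TPM in MI prednisone. Mmp2-203 (674 bases) was 9.47, 8.19 and 2.19 TPM there and at most 3.93 TPM elsewhere. Transcripts under 0.5 of the length of the longest took 26.2% to 50.5% of Mmp2 TPM in MI prednisone and at most 9.41% in any other library.

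Mmp14, the membrane-anchored collagenase (MT1-MMP) that activates pro-MMP2 together with TIMP2, moved like Timp2 (chr14:54431612-54445364). It stood at 7.26, 9.53 and 5.16 TPM in sham vehicle mice, 8.81, 8.44 and 9.66 in sham prednisone, 14.4, 21.4 and 23.5 in MI vehicle, and 8.26, 8.84 and 6.54 in MI prednisone. The MI vehicle mice were above all others, and the MI prednisone mice lay within the sham vehicle range. Its rise under vehicle was 1.32 ± 0.22 (limma adjusted p = 0.0080), its difference under prednisone -0.17 ± 0.22 (adjusted p = 0.63), and its difference among infarcted hearts -1.21 ± 0.22 (adjusted p = 0.0025). The interaction of -1.50 ± 0.31 (adjusted p = 0.011) was -0.97 after the length correction (adjusted p = 0.056).

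Mmp23, a transmembrane member with an unusual cysteine-rich domain, rose to a narrow range (chr4:155650655-155653384). The values were 8.04, 11.9 and 6.59 TPM in sham vehicle mice, 8.55, 7.25 and 8.0 in sham prednisone, 21.6, 23.3 and 22.9 in MI vehicle, and 13.7, 14.3 and 8.35 in MI prednisone. MI prednisone lay between, 2 of its mice above all sham mice and 1 within the sham range. The vehicle rise was 1.29 ± 0.21 (limma adjusted p = 0.0085), or adjusted p = 0.052 without sham vehicle replicate 3. The difference of -0.88 ± 0.21 among infarcted hearts (adjusted p = 0.0096) was -0.45 after median-ratio rescaling (adjusted p = 0.13). Its coding transcript (1434 bases) stood at 16.1 ± 1.84 TPM in MI vehicle and 8.19 ± 2.44 in MI prednisone (SD, n = 3), and a retained-intron transcript of 513 bases at 4.38 ± 1.10 and 1.27 ± 0.21. A further retained-intron transcript, of 1183 bases, did not differ by the test between these groups (0.40 ± 0.25, adjusted p = 0.24).

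Mmp3, stromelysin 1, a broad protease that also activates other MMP precursors, was at 2.70, 2.45 and 2.23 TPM in sham vehicle and 4.03, 3.51 and 2.86 in sham prednisone (chr9:7445822-7455975). Infarcted hearts had 5.52, 12.2 and 8.94 TPM under vehicle and 8.68, 5.09 and 3.37 under prednisone. The sham groups did not overlap, prednisone being higher, but their difference of 0.36 ± 0.30 did not pass the test (limma adjusted p = 1.0). The rise under vehicle was 1.46 ± 0.30 (adjusted p = 0.015), lost without sham vehicle replicate 1 (adjusted p = 0.058) or replicate 3 (0.076) and after median-ratio rescaling (1.09, adjusted p = 0.051). Among infarcted hearts the groups overlapped and the difference was -0.58 ± 0.30 (adjusted p = 0.14).

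Mmp9, the gelatinase of neutrophils and macrophages, was low and scattered (chr2:164940780-164955850). Its level was 1.40, 1.63 and 0.52 TPM in sham vehicle mice, 1.47, 1.03 and 1.15 in sham prednisone, 2.46, 1.03 and 4.83 in MI vehicle, and 0.79, 1.82 and 1.41 in MI prednisone. All groups overlapped and no comparison of the gene total passed. Under vehicle the infarction difference was 0.70 ± 0.35 (limma adjusted p = 0.14). The full-length coding transcript Mmp9-201 (3175 bases) was lower with prednisone among infarcted hearts, at 0.59 ± 0.084 against 2.52 ± 1.75 TPM (SD, n = 3; -1.01 ± 0.36, limma adjusted p = 0.048 over transcripts). The non-coding Mmp9-204 (1125 bases) held 33.4% to 62.3% of the gene in MI prednisone and at most 11.7% in any other library. The library highest for the gene, MI vehicle replicate 3, was the one that held the most T cell, B cell, macrophage and neutrophil marker RNA. Macrophage markers summed to 1341 TPM there against 277 to 834 elsewhere, and neutrophil markers to 56.3 against 5.99 to 34.4. Group averages in the neutrophil list ran from at most 0.051 TPM for Ly6g to 7.62 to 16.2 TPM for S100a9.

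Mmp15, a membrane-type protease also called MT2-MMP, had the highest mean TPM of the Mmp genes in both sham groups, and no comparison of it passed the test (chr8:95352268-95375080). It stood at 21, 22.8 and 24.2 TPM in sham vehicle mice, 23.0, 26.2 and 29.1 in sham prednisone, 20.6, 17.1 and 21.4 in MI vehicle, and 17.3, 19.8 and 22.0 in MI prednisone. Its share of summed Mmp TPM was 32.6% ± 4.57 (SD, n = 3) in sham vehicle and 14.6% ± 3.36 in MI vehicle, where Mmp2 held 35.4% ± 5.42. The infarction difference was -0.19 ± 0.13 under vehicle (limma adjusted p = 0.25) and -0.39 ± 0.13 under prednisone (adjusted p = 0.067).

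**Figure D3:**
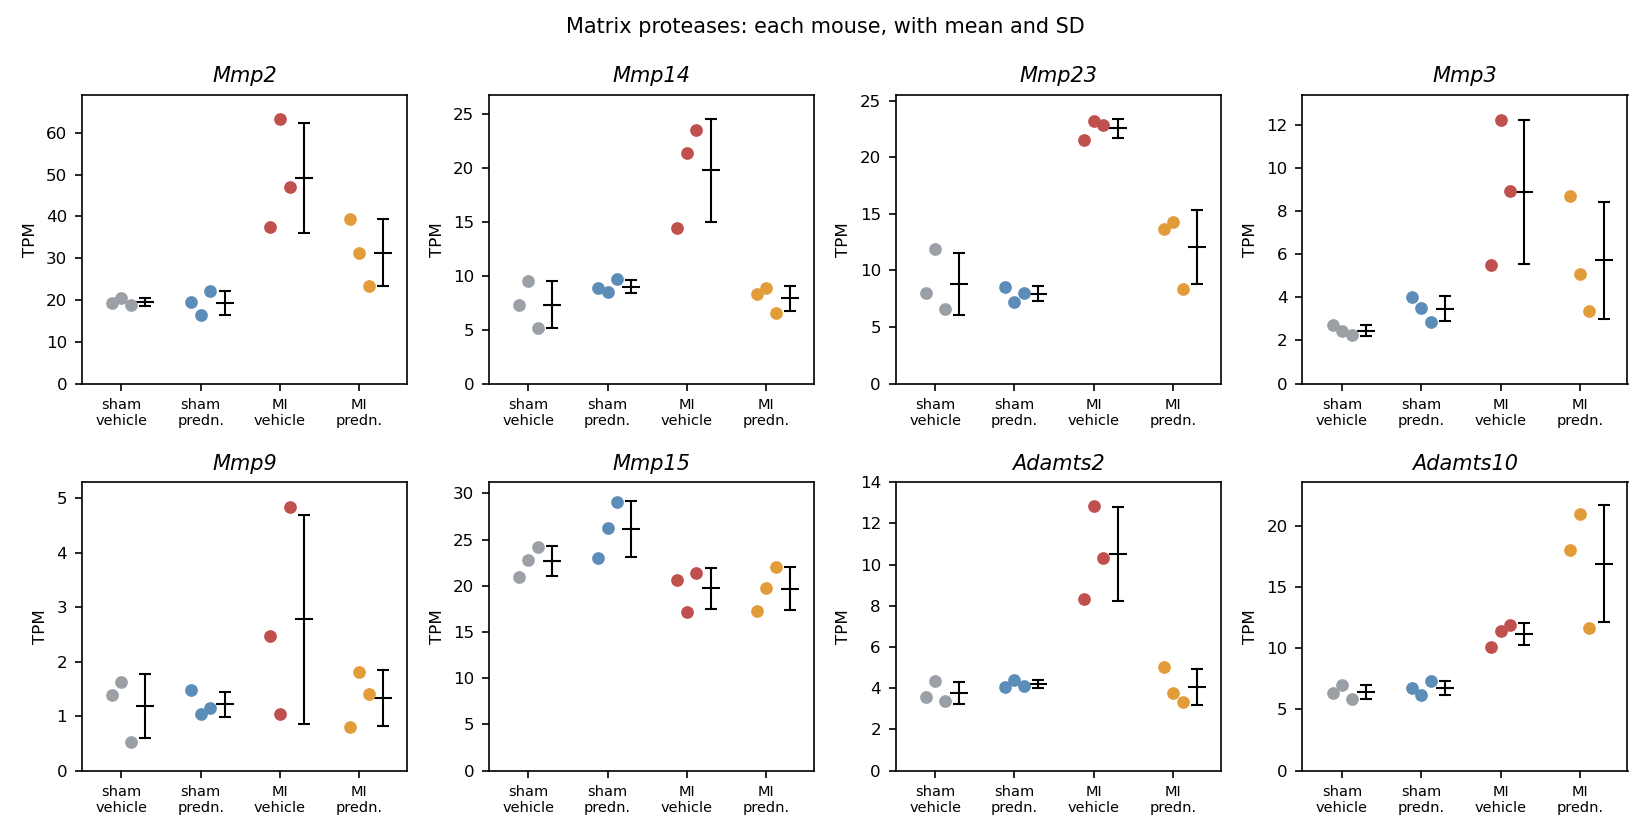
TPM of 8 protease genes in each mouse (points, 3 per group) with the group mean and SD. Mmp14 and Adamts2 have the 3 MI vehicle mice above every other mouse, and Mmp15 lies between 17.1 and 29.1 TPM in all groups. Adamts10 is highest on average in MI prednisone, whose replicate 3 (11.7 TPM) lies below MI vehicle replicate 3 (11.9 TPM).

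The low Mmp genes Mmp19, Mmp28 and Mmp12 also passed a test somewhere. Mmp19, an MMP expressed widely in tissue (chr10:128790910-128800824), was 1.46, 1.73 and 0.75 TPM in sham vehicle mice, 1.65, 1.42 and 1.43 in sham prednisone, 3.23, 2.30 and 4.49 in MI vehicle, and 1.55, 2.63 and 1.43 in MI prednisone. It rose under vehicle (0.90 ± 0.24, limma adjusted p = 0.033) and lost the call without MI vehicle replicate 3 (0.081), sham vehicle replicate 1 (0.091) or replicate 3 (adjusted p = 0.14). Mmp28, epilysin (chr11:83440768-83463071), was 1.97, 1.94 and 1.28 TPM in sham vehicle mice, 1.55, 1.52 and 1.85 in sham prednisone, 2.72, 2.77 and 4.92 in MI vehicle, and 1.69, 1.54 and 1.57 in MI prednisone. Both called differences of Mmp28 set MI vehicle apart: 0.69 ± 0.20 against sham (adjusted p = 0.042) and -0.75 ± 0.20 for prednisone (adjusted p = 0.014). The first was lost without any of the 3 sham vehicle mice (adjusted p = 0.098, 0.065 and 0.15) or MI vehicle replicate 3 (0.076). Mmp12, the macrophage elastase (chr9:7344381-7369499), was 1.11, 0.84 and 0.69 TPM in sham vehicle mice, 0.17, 0.18 and 0.46 in sham prednisone, 1.90, 2.01 and 1.00 in MI vehicle, and 0.61, 1.85 and 4.91 in MI prednisone. Its difference under prednisone (1.25 ± 0.38, limma adjusted p = 0.044) lost its call without any of the sham prednisone mice (adjusted p = 0.13, 0.13 and 0.086) or MI prednisone replicate 2 (0.11) or 3 (0.089). Mmp11, stromelysin 3, passed no test and ran from 2.51 to 7.80 TPM. These low values share annotated exon bases with genes on the other strand: 789 bases of Mmp19 with Tmem198b (2.38 to 5.36 TPM), 466 of Mmp28 with 1700020L24Rik (1.31 to 6.83 TPM) and 155 of Mmp11 with the abundant Chchd10 (623 to 1021 TPM). The libraries were stranded per the labels' protocols. Whether reads were assigned by strand is not given in the sources used here, so these 3 genes are uncertain.

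Adamts2, the procollagen I N-proteinase, showed the same pattern as Timp2 and Mmp14 among the ADAMTS enzymes (chr11:50602084-50807573). Its level was 3.56, 4.35 and 3.38 TPM in sham vehicle mice, 4.05, 4.41 and 4.10 in sham prednisone, 8.34, 12.9 and 10.3 in MI vehicle, and 5.01, 3.76 and 3.35 in MI prednisone. The MI vehicle mice stood above all others and the remaining groups overlapped. The differences were 1.26 ± 0.17 for infarction under vehicle (limma adjusted p = 0.0053), -0.05 ± 0.17 under prednisone (adjusted p = 0.87), and -1.19 ± 0.17 among infarcted hearts (adjusted p = 0.0012). The last was -0.49 after the length correction (adjusted p = 0.089), and the interaction of -1.31 ± 0.25 (adjusted p = 0.0089) was -0.84 after median-ratio rescaling (adjusted p = 0.061) and -0.50 after the length correction (adjusted p = 0.32). Its paralog Adamts3 passed no test, between 0.35 and 1.70 TPM, and Adamts14 was under the filter.

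Of the ADAMTS enzymes that cut versican and aggrecan, Adamts1 was the most abundant (chr16:85793827-85803113). It stood at 7.59, 10.8 and 7.88 TPM in sham vehicle mice, 8.18, 9.66 and 6.97 in sham prednisone, 11.1, 16.4 and 16.1 in MI vehicle, and 6.97, 7.13 and 8.67 in MI prednisone. Its rise under vehicle (0.67 ± 0.19, limma adjusted p = 0.039) was lost without sham vehicle replicate 1 (0.13) or 3 (0.14) and without MI vehicle replicate 2 (0.071) or 3 (0.094), and was 0.26 after median-ratio rescaling. The difference of -0.84 ± 0.19 among infarcted hearts (adjusted p = 0.0064) was -0.42 after that rescaling (adjusted p = 0.097). Adamts5, aggrecanase 2, was 3.88, 4.44 and 3.01 TPM in sham vehicle mice, 3.75, 3.21 and 4.05 in sham prednisone, 5.56, 5.21 and 5.83 in MI vehicle, and 3.11, 2.95 and 2.37 in MI prednisone. MI vehicle was highest and MI prednisone did not overlap it, the difference being -0.78 ± 0.15 (adjusted p = 0.0036). The interaction for Adamts5 was -0.76 ± 0.21 (adjusted p = 0.031) and lost its call in 7 of the 12 fits that left out a mouse: sham vehicle replicate 1 (0.070) or 3 (0.084), sham prednisone replicate 1 (0.071) or 3 (0.081), or MI prednisone replicate 1 (0.053), 2 (0.056) or 3 (0.057).

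Adamts9, a versican-cutting enzyme also known for a role in secretion, lay close to the threshold (chr6:92772699-92943492). It was 2.04, 2.62 and 2.33 TPM in sham vehicle mice, 3.09, 2.73 and 2.59 in sham prednisone, 2.87, 4.04 and 3.57 in MI vehicle, and 2.18, 2.15 and 2.40 in MI prednisone. The difference among infarcted hearts was -0.46 ± 0.15 (limma adjusted p = 0.029), lost without MI vehicle replicate 2 (0.088) or MI prednisone replicate 1 (0.082) or 2 (0.075), and turned to 0.24 after the length correction (adjusted p = 0.25). The interaction of -0.66 ± 0.21 (adjusted p = 0.043) was lost in 10 of 12 fits that left out a mouse, the exceptions being MI vehicle replicates 1 and 3, with the highest adjusted p, 0.11, without sham vehicle replicate 1. Adamts8, an enzyme first described as an inhibitor of angiogenesis, was 0.34, 0.41 and 0.33 TPM in sham vehicle mice, 0.38, 0.45 and 0.58 in sham prednisone, 0.95, 1.00 and 3.02 in MI vehicle, and 1.51, 0.76 and 0.78 in MI prednisone (chr9:30942562-30963838). Adamts8 shares 489 annotated exon bases with Gm29724 on the other strand, a gene without a value here. All infarcted hearts were above all sham hearts for Adamts8. The rise under vehicle (0.88 ± 0.27, limma adjusted p = 0.048) was 0.54 without MI vehicle replicate 3 (adjusted p = 0.10) and was also lost without sham vehicle replicate 1 (0.13), 2 (0.082) or 3 (0.14). Adamts15 passed no test and ran from 1.32 to 2.69 TPM.

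Adamts7 was the member that fell with infarction under vehicle, and Adamts10 the enzyme that rose with prednisone among infarcted hearts. Adamts7, which cuts cartilage oligomeric matrix protein, was 4.23, 4.92 and 3.54 TPM in sham vehicle mice, 4.36, 2.79 and 3.64 in sham prednisone, 2.62, 2.68 and 2.21 in MI vehicle, and 2.50, 3.46 and 3.38 in MI prednisone (chr9:90163069-90208071). It shares 122 annotated exon bases with Tbc1d2b on the other strand (2.39 to 11.9 TPM), so its level carries the same uncertainty about strand as Mmp19, Mmp28 and Mmp11. Its fall by 0.57 ± 0.17 under vehicle (limma adjusted p = 0.047) became -0.88 after median-ratio rescaling and -0.98 after the length correction, and lost its call without sham vehicle replicate 1 (0.13), 2 (0.11) or 3 (0.096) or MI vehicle replicate 2 (0.061) or 3 (0.097). Adamts10, a fibrillin-binding enzyme, was 6.37, 6.97 and 5.84 TPM in sham vehicle mice, 6.71, 6.14 and 7.30 in sham prednisone, 10.1, 11.4 and 11.9 in MI vehicle, and 18.0, 21 and 11.7 in MI prednisone (chr17:33524204-33553782). It rose with infarction under vehicle (0.71 ± 0.18, adjusted p = 0.029) and under prednisone (1.18 ± 0.18, adjusted p = 0.0024). The first of these was lost without sham vehicle replicate 1 (0.095) or 3 (0.12) or MI vehicle replicate 2 (0.054) or 3 (0.065). Its difference of 0.53 ± 0.18 among infarcted hearts (adjusted p = 0.042) was lost without MI vehicle replicate 1 (0.085) or 2 (0.067) or MI prednisone replicate 1 (0.13) or 2 (0.15), and was 0.95 after median-ratio rescaling.

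Much of the Adamts10 signal came from transcripts annotated as not coding for the full protein. A transcript marked for nonsense-mediated decay (4121 bases) stood at 1.94 ± 0.84 TPM (SD, n = 3) in sham vehicle, 4.08 ± 0.70 in MI vehicle and 5.99 ± 1.71 in MI prednisone. Retained-intron transcripts of 3967 and 2422 bases stood at 2.92 ± 1.40 and 2.94 ± 1.05 TPM in MI prednisone and 0.98 ± 0.26 and 0.79 ± 0.24 in sham vehicle. The main coding transcript (4043 bases) was 0.72 ± 0.63, 1.50 ± 0.37 and 2.06 ± 1.04 TPM in sham vehicle, MI vehicle and MI prednisone, and none of its comparisons passed.

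Adamtsl2, which encodes a fibrillin-associated glycoprotein that binds latent TGF-beta binding protein, rose with infarction under both treatments (chr2:27079379-27108981). Its level was 2.07, 3.27 and 3.12 TPM in sham vehicle mice, 3.28, 3.21 and 3.41 in sham prednisone, 9.26, 22.0 and 13.4 in MI vehicle, and 28.6, 19.9 and 11.2 in MI prednisone. No infarcted heart overlapped a sham heart, and the infarcted groups overlapped each other. The rise was 1.99 ± 0.33 under vehicle (limma adjusted p = 0.0082) and 2.19 ± 0.33 under prednisone (adjusted p = 0.0022), with an interaction of 0.20 ± 0.46 (adjusted p = 0.78).

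The transcripts behind those totals differed between treatments. The coding Adamtsl2-201 (3612 bases) was 1.55, 2.54 and 2.25 TPM in sham vehicle mice, 3.01, 2.58 and 3.2 in sham prednisone, 7.44, 19.3 and 13.1 in MI vehicle, and 7.40, 4.26 and 4.15 in MI prednisone. It rose under vehicle (2.12 ± 0.30, limma adjusted p = 0.010), differed by 0.64 ± 0.30 under prednisone (adjusted p = 0.16), and was lower with prednisone among infarcted hearts (-1.14 ± 0.30, adjusted p = 0.015), with an interaction of -1.49 ± 0.43 (adjusted p = 0.035). The retained-intron Adamtsl2-203 (1069 bases) was 18.4, 11.5 and 6.90 TPM in MI prednisone and at most 2.31 TPM in the other 9 libraries, a difference of 2.59 ± 0.45 among infarcted hearts (adjusted p = 0.0019). In MI prednisone that transcript, annotated as non-coding, held 57.9% to 64.5% of the gene total, while in sham prednisone it held at most 15.1% and the coding one 80.3% to 93.7%.

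What sets these short transcripts apart from the full-length ones is shown by their first annotated junctions, 30 bases on each side (GENCODE M21, GRCm38, plus strand), with bases shared with the full-length transcript in capitals.
Adamtsl2-203, chr2:27104719-27104778: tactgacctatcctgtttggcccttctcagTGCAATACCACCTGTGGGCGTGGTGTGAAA
Mmp2-202, exon ending at base 92843617 of chromosome 8 joined to the exon starting at 92843820: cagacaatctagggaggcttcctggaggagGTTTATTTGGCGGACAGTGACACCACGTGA
In the first, intron sequence reads into exon 17 of the 19 exons of Adamtsl2-201, and 983 of the 1069 bases lie in its exons, at its 3′ end. In the second, 87 bases of their own precede exon 10 of the 13 exons of Mmp2-201, and 848 of 935 bases are shared. So most of the sequence that assigns reads to these transcripts is also the 3′ end of the coding ones. Over the 24 tested genes with a transcript under 0.5 of the length of the longest, such transcripts held 20.1% to 25.0% of summed TPM in MI prednisone and 14.9% to 19.7% in the other libraries. The median share over those 24 genes overlapped, 13.6% to 19.4% against 7.07% to 16.2%. Over 8792 genes the median share was 11.8% to 15.6% in MI prednisone against 16.4% to 18.5%, while the mean share overlapped, 26.7% to 28.5% against 27.5% to 28.5%. Whether coverage along transcripts differed between libraries was not tested.

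**Figure D4:**
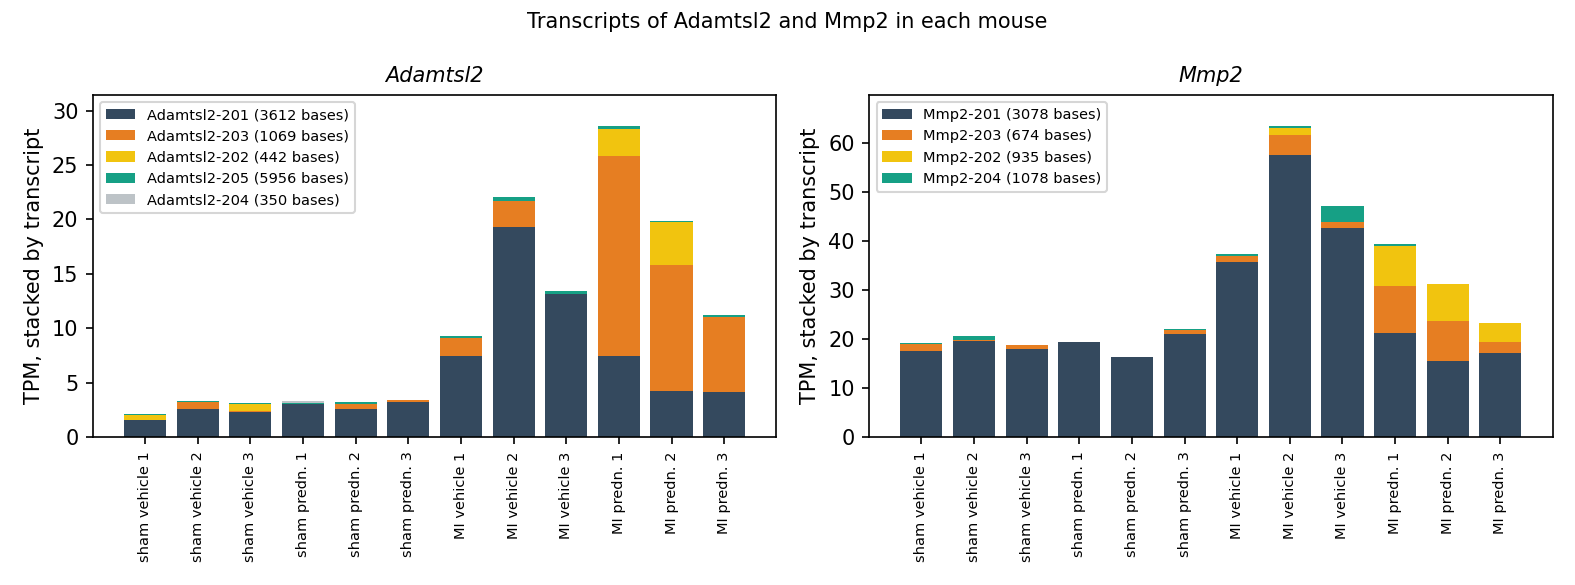
TPM of each transcript of Adamtsl2 (left) and Mmp2 (right), stacked in each of the 12 mice, with transcript lengths in the key. In MI prednisone the retained-intron Adamtsl2-203 reaches 6.90 to 18.4 TPM and Mmp2-202 reaches 3.92 to 8.23 TPM, while the full-length transcripts (dark blue) are lower than in every MI vehicle mouse, by little for Adamtsl2-201 in MI prednisone replicate 1 (7.40 against 7.44 TPM).

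The other ADAMTS-like genes did not follow Adamtsl2. Adamtsl3, a secreted matrix protein, was 1.34, 2.20 and 1.08 TPM in sham vehicle mice, 2.45, 1.46 and 2.10 in sham prednisone, 1.96, 4.53 and 3.08 in MI vehicle, and 0.63, 0.59 and 0.65 in MI prednisone (chr7:82335694-82614450). MI prednisone was below every other mouse. The differences were -1.32 ± 0.24 among infarcted hearts (limma adjusted p = 0.0030), -0.87 ± 0.24 against sham under prednisone (adjusted p = 0.033) and -1.57 ± 0.35 for the interaction (adjusted p = 0.014). After the length correction these were -0.69, -0.55 and -0.84, with adjusted p of 0.062, 0.13 and 0.19. The second of them was also lost without sham prednisone replicate 1 (0.12) or 3 (0.099) or MI prednisone replicate 1 (0.095), 2 (0.10) or 3 (0.055). Adamtsl1 was 1.01, 1.00 and 0.25 TPM in sham vehicle mice, 1.04, 0.81 and 0.70 in sham prednisone, 2.50, 1.19 and 2.14 in MI vehicle, and 0.50, 1.16 and 0.39 in MI prednisone (chr4:85514172-86428385). Its difference of -0.81 ± 0.26 among infarcted hearts (adjusted p = 0.032) was lost without MI vehicle replicate 1 (0.078) or 3 (0.072) or MI prednisone replicate 1 (0.096) or 3 (0.10).

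The gene totals of Adamtsl4 and Adamtsl5 were steadier. Adamtsl4, which binds fibrillin and is known from lens dislocation, was 14.0, 13.8 and 12.9 TPM in sham vehicle mice, 9.21, 9.75 and 9.80 in sham prednisone, 12.1, 11.5 and 10.8 in MI vehicle, and 9.65, 10.6 and 9.29 in MI prednisone (chr3:95676201-95687917). Both prednisone groups lay below both vehicle groups without overlap, by -0.46 ± 0.10 in sham (limma adjusted p = 0.46) and -0.20 ± 0.10 in MI (adjusted p = 0.14), and neither passed. Its main coding transcripts of 3856 and 4036 bases stood at 8.07 ± 0.060 and 2.79 ± 1.14 TPM (SD, n = 3) in sham vehicle and 5.90 ± 0.68 and 2.81 ± 0.49 in sham prednisone, and a transcript of 288 bases at 2.45 ± 1.36 and 0.71 ± 0.67. Adamtsl5, the most abundant of the ADAMTS-like RNAs, was 23.5, 35.8 and 28.3 TPM in sham vehicle mice, 31.5, 30.8 and 35.5 in sham prednisone, 34.5, 40.2 and 30.9 in MI vehicle, and 29.3, 27.9 and 25.3 in MI prednisone (chr10:80339110-80348412). The infarcted groups did not overlap, and the difference of -0.34 ± 0.15 did not pass (adjusted p = 0.098). A retained-intron transcript (3520 bases) was its most abundant, 13.9 ± 1.52 TPM in MI prednisone and 14.9 ± 2.13 in MI vehicle. The coding one of 1957 bases was 4.23 ± 0.91 and 8.44 ± 1.41 TPM there, and the coding one of 989 bases was listed at 0 in all 3 MI prednisone libraries against 4.21 to 4.89 TPM in MI vehicle. In the transcript-level fit both were called lower with prednisone among infarcted hearts, unlike the gene total. The differences were -0.86 ± 0.17 (limma adjusted p = 0.0045) and -2.44 ± 0.31 (adjusted p = 0.00042). For the one of 989 bases the interaction was -4.08 ± 0.44 (adjusted p = 0.00053). That value also holds a difference of 1.64 ± 0.31 between the sham groups, prednisone being higher, which did not pass (adjusted p = 0.20).

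A ratio of summed families within a library does not depend on the scale of that library. The ratio of summed Timp to summed Mmp TPM was 1.56, 1.63 and 1.70 in sham vehicle mice, 1.51, 1.45 and 1.32 in sham prednisone, 1.77, 1.97 and 1.89 in MI vehicle, and 1.17, 1.14 and 1.13 in MI prednisone. The groups did not overlap, MI vehicle being highest and MI prednisone lowest. Timp RNA summed to 114 ± 11.3 TPM (SD, n = 3) in sham vehicle mice, 107 ± 3.69 in sham prednisone, 260.3 ± 50.7 in MI vehicle and 105 ± 15.1 in MI prednisone, and Mmp RNA to 70.0 ± 7.26, 75.5 ± 5.98, 138 ± 20.2 and 91.1 ± 11.5. In MI prednisone the inhibitor sum was within or below the sham range while the Mmp sum was above it in 2 of 3 mice. Both the Mmp sum and the ratio count the short Mmp2 transcripts. Those held 26.2% to 50.5% of Mmp2 TPM in MI prednisone and at most 9.41% in any other library. Whether MI prednisone stays apart from the sham groups without them was not tested, so its separation is shown only with them counted. The ratio is given as a description, without a test, and it compares RNA shares, not inhibitor and enzyme molecules.

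**Figure D5:**
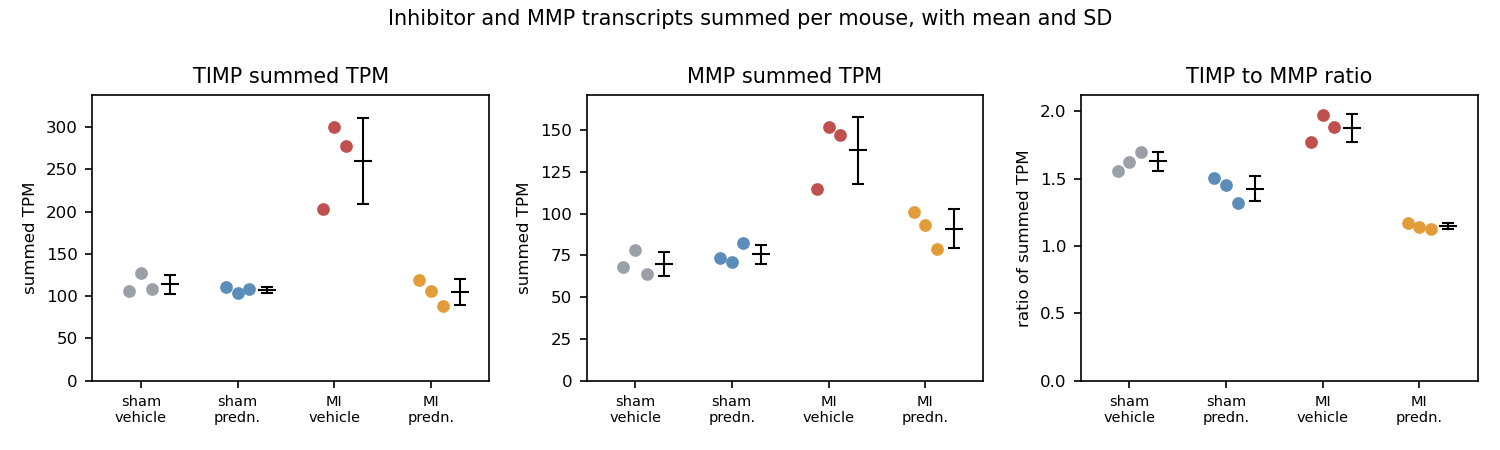
Summed TPM of the 4 Timp genes, summed TPM of the 23 Mmp genes and their ratio in each mouse (points, 3 per group), with the group mean and SD. The ratio lies between 1.77 and 1.97 in MI vehicle and between 1.13 and 1.17 in MI prednisone, with the sham groups between. The Mmp sum and the ratio count the short Mmp2 transcripts, and the ratio without them was not tested.

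Genes for proteins that activate, clear or otherwise inhibit these enzymes gave calls in both directions. Of 15 tested, 8 rose and 0 fell with infarction under vehicle, 1 rose and 3 fell under prednisone, and 1 rose and 9 fell with prednisone among infarcted hearts, where 15.1% of all genes rose in the first, 2.73% rose and 14.1% fell in the second, and 2.5% rose and 34.9% fell in the third. The membrane-bound MMP inhibitor Reck stood at 2.43 TPM on average in sham vehicle, 5.26 in MI vehicle and 1.44 in MI prednisone, falling by 1.34 ± 0.18 with prednisone (limma adjusted p = 0.00096). The collagenolytic cathepsin Ctsk rose by 1.37 with infarction under vehicle (adjusted p = 0.0068) and fell by 1.25 with prednisone among infarcted hearts (adjusted p = 0.0021). Lrp1, the receptor that clears protease and inhibitor complexes, was the gene that rose with prednisone (0.48 ± 0.17, adjusted p = 0.045), and it also had the called rise with infarction under prednisone (1.57, adjusted p = 0.0012), where Furin, which activates membrane-type MMPs, had the largest fall, by 0.65.

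Related metalloproteinases gave mixed counts. Of 9 tested ADAM proteases, which shed cell-surface proteins, 3 rose and 0 fell with infarction under vehicle, 2 rose and 2 fell under prednisone, and 2 rose and 3 fell with prednisone among infarcted hearts. Among all genes 15.1% rose in the first comparison, 2.73% rose and 14.1% fell in the second, and 2.5% rose and 34.9% fell in the third, so the 3 falls are a share near that of all genes. The largest called rises under vehicle were those of Adam10 and Adam9, 0.73 and 0.68, and under prednisone those of Adam15 and Adam33, 1.31 and 0.89. Adam8 differed by 1.41 ± 0.59 under vehicle and 1.24 ± 0.59 under prednisone, without passing (limma adjusted p = 0.099 and 0.19). With prednisone among infarcted hearts Adam10 and Adam9 fell by 1.41 and 1.12 (limma adjusted p = 0.0012 and 0.00081), while Adam15 rose by 0.76 (adjusted p = 0.012) from an average of 40.9 to 72.2 TPM. Adam19 was the ADAM called in sham hearts, where it averaged 11.9 TPM with prednisone and 4.70 with vehicle (1.19, adjusted p = 0.010). The 3 tested procollagen C-proteinase genes, Bmp1 and its enhancers Pcolce and Pcolce2, rose under vehicle, by 0.81, 1.06 and 0.75, and Pcolce rose under prednisone (0.79, adjusted p = 0.016). Of these Pcolce2 fell with prednisone among infarcted hearts (-0.71, adjusted p = 0.024).

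Most of their tested matrix substrates and partners rose with infarction under vehicle. Of 19 tested, 17 rose and 0 fell there (15.1% of all genes rose). Under prednisone 3 rose and 1 fell with infarction (2.73% and 14.1% of all genes). With prednisone among infarcted hearts 14 fell and 1 rose (34.9% and 2.5% of all genes). The list's median log2 differences in these 3 comparisons were 1.26, 0.04 and -1.20 against 0.39, -0.06 and -0.41 over all genes. The cartilage oligomeric matrix protein Comp averaged 5.51 TPM in sham vehicle, 92.2 in MI vehicle and 30.6 in MI prednisone, and its rise of 3.72 was the largest in the list, followed by that of Ltbp2, 2.68. These 2 also had the largest called rises under prednisone, 1.82 and 1.49. With prednisone among infarcted hearts the largest falls were those of Thbs1, a matrix protein of the thrombospondin family, by 2.03 (limma adjusted p = 0.0037), and of fibronectin Fn1, by 1.74 (adjusted p = 0.0031). The basement membrane proteoglycan Hspg2 rose, averaging 45.0 TPM in MI vehicle and 97.9 in MI prednisone (1.12, adjusted p = 0.00039).

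The interaction was called lower for 13 of the 19 substrates and higher for 1, lower for 4 of the 9 ADAM genes, and lower for 4 and higher for 1 of the 15 genes for activation, clearance and inhibition, where 20.7% of all genes were lower. The largest called were -2.34 for Thbs1 and -2.0 for Fn1, -1.52 for Adam10 and -1.25 for Adam9, and -1.45 for Reck and -1.02 for the tissue plasminogen activator Plat. None of the 3 procollagen C-proteinase genes was called.

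The 3 genes outside the families whose levels were most like those of Timp1 across the 12 libraries, among 8105 with a mean of at least 5 TPM, were Mrc2 (Pearson's r = 0.987), Wisp2 (0.981) and Comp (0.976). Mrc2 encodes an endocytic collagen receptor, and it stood at 6.07, 9.54 and 6.92 TPM in MI vehicle, 6.42, 5.49 and 4.85 in MI prednisone, and 3.36 to 4.11 in sham hearts. These values of r describe libraries that fall into groups, MI vehicle replicate 2 being highest for Timp1 and for all 3 genes, and carry no test.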

How the data were processed

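Stranded mRNA libraries were made from column-purified total RNA of 12 hearts, per the labels' protocols. The authors deposited TPM per transcript, without counts, so that the depth of each library is unknown and no counting error can be given; the precision rests on 3 mice per group. Trimmomatic, HISAT2, kallisto and the build mm10 are named in the submitters' processing notes, with no role or version. TPM are shares, so an abundant RNA lowers all others, and uneven coverage can move TPM between transcripts.

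Transcripts were summed to genes by symbol, and the 13158 genes that reached 1 TPM in 3 or more libraries were transformed to log2(TPM + 1), a scale that understates changes of low genes. A 4-group model was fitted with limma 3.58.1 (trend) in R 4.3.3, with Benjamini-Hochberg adjustment over all genes per comparison and a threshold of 0.05. On simulated data of the vehicle comparison (13158 genes, 200 changed) it recovered 70% of log2 changes of 1 and 94% of changes of 2. The simulated noise was independent, with the same spread in every group, and only genes with a mean log2(TPM + 1) above log2(3) were changed. Real MI vehicle libraries were more variable, correlating at 0.891 to 0.957 with each other against 0.986 to 0.987 in sham prednisone. So these rates need not hold for the real comparison or for lower genes. An exact test of 3 against 3 mice cannot go below p = 0.1, so none is given. The transcript fit used the same settings. The median-ratio rescaling divides each library by the median ratio of its genes to their geometric means, and the length correction subtracts a loess curve (span 0.5) of each library's deviation on log10 transcript length. Coordinates and lengths are from GENCODE M21 (GRCm38), which holds 94.7% of the transcripts; Adamts5 has no coordinates here. Promoters are from RefSeq.

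The members and gene lists were chosen with earlier results of these data known. Values per mouse are given for Timp1 to Timp4, Mmp2, Mmp9, Mmp14, every member called in a comparison and every member with a mean of at least 5 TPM. Transcripts are given where at least 2 had a mean of at least 1 TPM, and for other lists the largest called changes, of which 1 gene is not reported here. Replicate numbers do not pair the mice.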

Additional observations from a re-analysis of the deposited data

Results flagged for a closer look

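The difference between the infarction effect under prednisone and under vehicle was itself tested with limma's interaction term, and it passed for 7 of the 28 tested genes. On the log2(TPM + 1) scale it was -1.57 for Adamtsl3, -1.50 for Mmp14, -1.47 for Timp2, -1.31 for Adamts2, -0.98 for Timp3, -0.76 for Adamts5 and -0.66 for Adamts9. Each of these genes stood higher on average in MI vehicle than in sham vehicle, while under prednisone its difference between MI and sham lay between -0.87 and 0.00. These 7 genes, all lower, were 25.0% of those tested. Among all genes 20.7% were lower and 0.540% higher by the same test, so the share differed little from the background. Timp2 is the gene among them whose interaction kept its call in all 19 alternatives.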

How the results depend on the processing

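Of 39 calls of single genes, 5 were kept in every alternative: the falls of Timp2, Timp3 and Mmp14 with prednisone among infarcted hearts, the interaction of Timp2 and the rise of Adamts10 under prednisone. A further 5 were lost only when just the groups compared were fitted. Adamts9 reversed under the length correction, chosen after seeing the data, to 0.24 among infarcted hearts and 0.16 for the interaction. The count of called members for MI against sham under vehicle, 15 in the report, was 9 with median-ratio rescaling, the length correction or the most abundant transcript, 0 with only the groups compared, and 5 to 18 with a mouse left out. Calls over all genes, 2100 of 13158 in the report, were 979 with rescaling, 613 of 11894 with the length correction and 586 of 12422 with the most abundant transcript. They were 2 with only the groups compared and 120 to 5631 with a mouse left out. Under prednisone the count of members, 4 in the report, was 8 with rescaling, 2 without the filter, with the most abundant transcript or with the replicate block, and 2 to 7 with a mouse left out. Over all genes, 2213 in the report, it was 3417 with rescaling, 1901 with the replicate block and 1027 to 2630 with a mouse left out. Among infarcted hearts the count of members, 13 in the report, was 8 with the length correction and 5 with only the groups compared. Over all genes, 4917 in the report, it was 1983 of 11894 and 808 of 13158. The interaction count of members, 7 in the report, was 4 with rescaling and 1 with the length correction. Over all genes, 2797 in the report, it was 1323 of 13158 and 250 of 11894. The replicate numbers do not pair the mice: the mean correlation of same-numbered deviations was -0.37 under vehicle, -0.05 under prednisone, -0.25 among infarcted hearts and 0.00 in sham. With the replicate block the vehicle count of members was 10, the count among infarcted hearts 11 and that for the interaction 5. Over all genes these were 1056, 4434 and 2352. No member was called in sham hearts in any alternative. The cause of these differences was not tested.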

Other observations

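Among the genes under the filter, which no test covers, Adamts12, a protease that cuts cartilage oligomeric matrix protein, was 0.42, 0.34 and 0.13 TPM in sham vehicle, 0.61, 0.50 and 0.91 in MI vehicle and 0.11, 0.14 and 0.12 in MI prednisone. Adamts6 was 0.52, 0.86 and 1.24 TPM in MI vehicle and 0.22, 0.37 and 0.31 in MI prednisone, below all 6 sham hearts (0.39 to 0.54 TPM). Mmp25, the membrane-type MMP of leukocytes, reached 0.74 TPM in MI vehicle replicate 3, the library with the most T and B cell marker RNA, and at most 0.11 TPM in any other.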
